A study of Homo sapiens with 6 samples.

Results

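The ISG15 conjugation and removal machinery comprised 9 genes of the 62710 in the expression table. They were chosen by their known role, as the rows whose Ensembl identifier maps to ISG15, UBA7, UBE2L6, HERC5, HERC6, HERC3, HERC4, ARIH1 or USP18. Earlier results of these data were known when this choice was made. The cells were HT1080, a human fibrosarcoma line, either left untreated or given human IFNβ at 20 ng/mL for 24 h, with 3 libraries in each group and no transgene or other agent named in the labels. The study asked whether IFNβ promotes ferroptosis, an iron-dependent form of cell death, in tumor cells. It used RNA sequencing to find changes in gene expression. Values are FPKM, in which the authors corrected the fragment count of a gene for its length and for the depth of sequencing. The RNA sequencing methods of the study name mouse IFNβ where the labels of these libraries name human IFNβ. The labels number the libraries of a group as replicates without saying that they came from separate cultures, so the p-values measure only the spread between these libraries.

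ISG15 is a ubiquitin-like protein that is attached to other proteins by a chain of enzymes parallel to that of ubiquitin. UBA7 is its activating enzyme (E1), UBE2L6 its conjugating enzyme (E2), and HERC5 the main ligase (E3) in human cells, whereas HERC6 takes that place in the mouse. HERC3 and HERC4 are small HERC ligases of the same family, and ARIH1 is an RBR ligase that can pass ISG15 to the cap-binding protein EIF4E2. USP18 is the protease that takes ISG15 off its targets, and it also binds the IFNAR2 chain of the type I interferon receptor and dampens its signalling. Transcription of ISG15 and of several of its enzymes is known to be switched on by type I interferon through a promoter element called the interferon-stimulated response element.

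The promoters of ISG15, HERC5 and HERC6 are shown because these 3 genes rose after IFNβ and differed in this element. RefSeq promoter windows (build GRCh38.p14, from 250 bases before a gene's start to 50 bases after it) were at hand for 7 of the 9 genes, in 9 windows, and UBA7 and USP18 had none. The core of the element (GAAA, any 2 bases, GAAA) was searched on both strands. The stretches below run 5′ to 3′ on the plus strand, which is the coding strand of the 3 genes, and capitals mark the matches. None of the 3 stretches overlaps an exon of GENCODE release 29.
ISG15, chr1:1013323-1013422: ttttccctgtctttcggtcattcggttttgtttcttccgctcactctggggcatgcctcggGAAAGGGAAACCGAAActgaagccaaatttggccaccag
HERC5, chr4:88456969-88457068: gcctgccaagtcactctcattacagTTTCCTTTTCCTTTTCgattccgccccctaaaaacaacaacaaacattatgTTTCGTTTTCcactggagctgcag
HERC6, chr4:88378639-88378738: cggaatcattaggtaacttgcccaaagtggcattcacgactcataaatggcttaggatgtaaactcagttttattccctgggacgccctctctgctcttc

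The ISG15 window held 2 overlapping matches on the plus strand, which began 113 and 107 bases before the RefSeq start of the gene. That start lies 12.4 kb inside the span that GENCODE release 29 gives for ISG15, which includes longer transcripts that begin upstream. The HERC5 window held 3 matches on the minus strand at 125, 119 and 74 bases before the RefSeq start, of which the first 2 overlap. No match was found in the windows of UBE2L6, HERC6, HERC3, HERC4 and ARIH1, which says only that these letters are absent from these windows. Of 35116 RefSeq promoter windows of the same length, 1255 (3.57%) held the core. A match is a description of the sequence and not a measured binding site.

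The 6 libraries had been divided by between 22848104 and 32915500 fragments, so that a fragment in a gene of 1 kb was worth between 0.0304 and 0.0438 FPKM. Pairs of libraries within a group differed by more than counting error, their chi-square statistics being 1.78 to 3.38 for each degree of freedom. All 5 mesenchymal markers (VIM, FN1, CD44, SPARC and S100A4) were at 1 FPKM or more in every library. None of 6 leukocyte and 2 endothelial markers reached that level in every library, and the leukocyte markers summed to between 0.660 and 0.752 FPKM over the libraries. Of the 5 epithelial markers, EPCAM, CDH1 and KRT19 were near 0, whereas KRT8 and KRT18 were present, and the sum was between 79.4 and 81.6 FPKM in untreated and between 134 and 139 FPKM in IFNβ-treated libraries.

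IFNβ raised the transcripts of the modifier, its E1, its E2, the ligases HERC5 and HERC6, and the protease. Groups were compared with limma on log2(FPKM + 0.1) over the 20716 genes with a mean of at least 0.1 FPKM, and a gene was called where its Benjamini-Hochberg adjusted p was under 0.05 and its log2 fold change was 1 or more in size. Of the 9 genes, 6 were called higher and 0 lower, 2 were tested and not called (HERC4 and ARIH1), and HERC3 was too low to be tested. Among all genes tested, 4.22% were called, 3.49% higher and 0.739% lower. As the 9 genes were chosen with earlier results of these data known, these shares are given for scale only. The IFNβ-treated libraries were all above the untreated ones in the 6 genes called and in HERC3, a pattern found in 22.3% of all genes tested. The lowest untreated mean among the 8 genes tested was 0.366 FPKM, in HERC5, so none entered the test through the IFNβ group alone. The median log2 fold change was 3.66 over the 8 genes tested and 0.00 over all genes tested. In RNA from bulk cultures, more cells with a transcript and more of it per cell cannot be told apart.

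**Figure D1:**
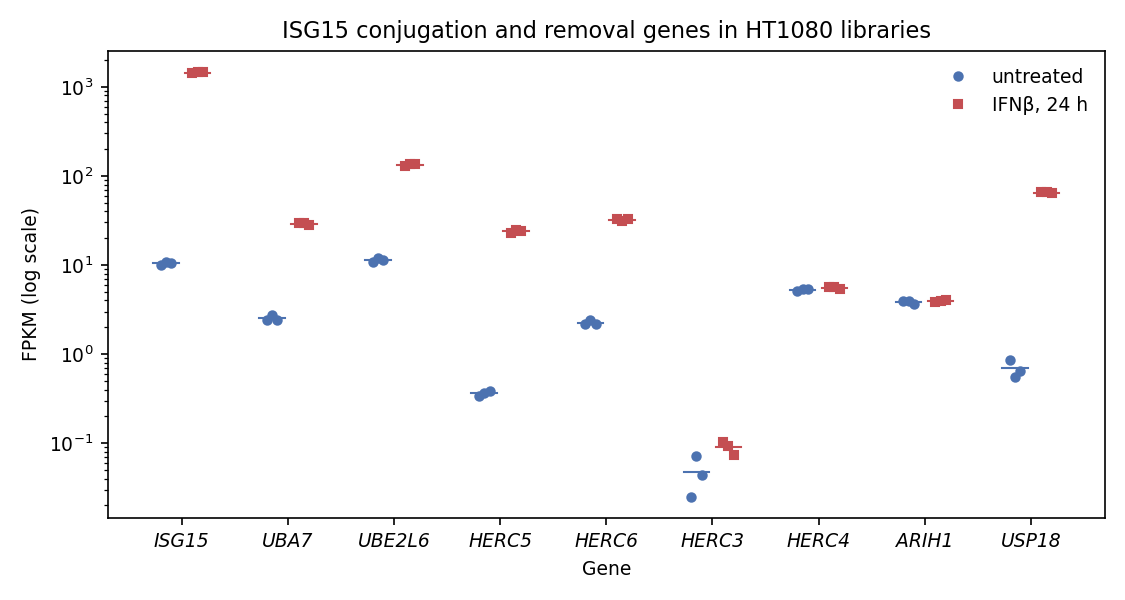
FPKM of the 9 genes (x axis) in each library on a log axis (y axis), with untreated libraries as blue circles, IFNβ-treated libraries as red squares and the group mean as a line. The 2 groups lie apart in ISG15, UBA7, UBE2L6, HERC5, HERC6 and USP18, lie close to each other in HERC3, where all values are under 0.11 FPKM, and overlap in HERC4 and ARIH1.

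ISG15 (ENSG00000187608, plus strand, chr1:1001138-1014540 in GENCODE release 29 on GRCh38) stood at 10.0, 10.9 and 10.6 FPKM in the untreated libraries and at 1414, 1463 and 1468 FPKM after IFNβ. The groups were far apart, and the libraries within each group lay close together. The mean went from 10.5 ± 0.473 to 1448 ± 30.1 FPKM (SD, n = 3 per group), a ratio of 138. The log2 fold change was 7.09 (SE 0.04, 95% interval 7.01 to 7.18, limma adjusted p = 1.15e-09), the 14th largest of the 20716 genes tested. By mean FPKM, ISG15 moved from rank 4172 to rank 9 of the table, where only 7 mitochondrial transcripts and FTL, the ferritin light chain, stood above it, and GAPDH stood below it at 1362 FPKM. The fragments behind these values were 198, 281 and 303 in untreated libraries and 37740, 31686 and 36779 in IFNβ-treated libraries.

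Next to the other ubiquitin-like modifiers, ISG15 was the 11th of 14 by mean FPKM in untreated cells, above NEDD8 (6.30 FPKM). After IFNβ it was the 1st of the 14, and NEDD8 was at 6.37 FPKM. UBD, which encodes the other interferon-responsive modifier FAT10, was listed at 0 in all libraries.

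UBA7 (ENSG00000182179, minus strand, chr3:49805207-49813946), the E1, was at 2.40, 2.73 and 2.43 FPKM in untreated libraries and at 29.7, 29.3 and 28.0 FPKM after IFNβ. All IFNβ-treated libraries were above all untreated ones. The mean rose from 2.52 ± 0.178 to 28.97 ± 0.897 FPKM, a ratio of 11.5 and a log2 fold change of 3.47 (SE 0.05, limma adjusted p = 1.30e-07). UBA1, the main E1 of ubiquitin and the nearest relative named for UBA7, was at 65.3 ± 0.389 FPKM untreated and 65.2 ± 1.31 FPKM after IFNβ (log2 fold change -0.00, limma adjusted p = 0.943). The coding sequences of the 2 genes align over 207 bases of UBA7 with 76.3% identity.

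UBE2L6 (ENSG00000156587, minus strand, chr11:57551656-57568284), the E2, had 10.7, 12.0 and 11.5 FPKM in untreated libraries and 130, 135 and 137 FPKM after IFNβ. The groups did not overlap. The mean rose from 11.4 ± 0.653 to 134 ± 3.60 FPKM, a ratio of 11.8 and a log2 fold change of 3.55 (SE 0.04, limma adjusted p = 5.23e-08). UBE2L3, the related E2 of the ubiquitin pathway, was at 39.0 ± 0.532 and 37.9 ± 0.377 FPKM (log2 fold change -0.04, limma adjusted p = 0.170). In untreated cells UBE2L3 was therefore the higher of the pair, and after IFNβ UBE2L6 was.

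HERC5 (ENSG00000138646, plus strand, chr4:88457117-88506163), the main human ligase for ISG15, was low in untreated libraries, at 0.340, 0.368 and 0.389 FPKM from 37, 52 and 61 fragments. After IFNβ it was at 23.1, 24.8 and 24.2 FPKM from 3390, 2955 and 3334 fragments. The mean rose from 0.366 ± 0.0246 to 24.1 ± 0.872 FPKM, a ratio of 65.8. Its log2 fold change was 5.70 (SE 0.06, 95% interval 5.56 to 5.84, limma adjusted p = 1.92e-08), and as the added 0.1 FPKM lowers the fold of a gene this low, the value was 4.20 with a pseudocount of 1 and 6.0 with 0.01. In rank by mean FPKM it moved from 15117 to 1832.

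HERC6 (ENSG00000138642, plus strand, chr4:88378739-88443111), its neighbour, was at 2.19, 2.40 and 2.16 FPKM untreated and at 32.5, 30.9 and 32.5 FPKM after IFNβ. The mean rose from 2.25 ± 0.129 to 32.0 ± 0.937 FPKM, a ratio of 14.2 and a log2 fold change of 3.77 (SE 0.05, limma adjusted p = 5.17e-08). HERC6 was the higher of the 2 ligases in every library, and the ratio of HERC5 to HERC6 was closer to 1 after IFNβ. Their coding sequences align over 1845 bases, 60% of that of HERC5, with 74.9% identity, and how fragments that match more than 1 gene were counted is not given in the sources used here.

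HERC3 (ENSG00000138641, plus strand, chr4:88592423-88708542), which encodes a further small HERC ligase, had 0.0251, 0.0725 and 0.0436 FPKM untreated and 0.103, 0.0919 and 0.0745 FPKM after IFNβ. These values rest on 4, 15 and 10 fragments and on 22, 16 and 15 fragments. The lowest IFNβ-treated library lay just above the highest untreated one, with 15 of 28893663 fragments against 15 of 29672197, shares whose 95% Wilson intervals overlap and cover counting error only. With a mean of 0.0684 FPKM HERC3 fell under the filter. In a fit with no filter its log2 fold change was 0.38 (SE 0.20, limma adjusted p = 0.294), and an exact two-sided permutation test gave p = 0.10, the smallest that 3 against 3 libraries allow. A second identifier with the name HERC3, ENSG00000287542, was listed at 0 in all libraries. Whether fragments shared between overlapping gene models were left out of these counts was not tested.

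HERC4 (ENSG00000148634, minus strand, chr10:67921899-68075348), which encodes a small HERC ligase known to act on ubiquitin, was at 5.14, 5.42 and 5.36 FPKM untreated and at 5.68, 5.67 and 5.32 FPKM after IFNβ. The groups overlapped. The means were 5.30 ± 0.148 and 5.56 ± 0.204 FPKM, with a log2 fold change of 0.07 (95% interval -0.03 to 0.17, limma adjusted p = 0.288). The interval allows at most a small change, since it ends at 0.17 on the log2 scale.

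ARIH1 (ENSG00000166233, plus strand, chr15:72474326-72602985), the RBR ligase, was at 3.97, 3.89 and 3.66 FPKM untreated and at 3.80, 3.90 and 4.06 FPKM after IFNβ, again with overlap. The means were 3.84 ± 0.163 and 3.92 ± 0.131 FPKM. The log2 fold change was 0.03 (95% interval -0.09 to 0.15, limma adjusted p = 0.711), and its sign turned with quantile normalization (-0.0127) and without untreated replicate 3 (-0.00498). An antisense gene, TMEM202-AS1, shares 689 exon bases with ARIH1 and was at 0.348 FPKM untreated and 0.524 FPKM after IFNβ, and whether the counting used strand is not given in the sources used here.

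USP18 (ENSG00000184979, plus strand, chr22:18149899-18177397), the protease, was at 0.866, 0.560 and 0.653 FPKM untreated and at 65.8, 65.2 and 64.4 FPKM after IFNβ. The untreated libraries were spread more widely in proportion to their mean than the treated ones, on 81, 68 and 88 fragments against 8297, 6668 and 7617. The mean rose from 0.693 ± 0.157 to 65.1 ± 0.712 FPKM, a ratio of 94.0. The log2 fold change was 6.38 (SE 0.13, 95% interval 6.06 to 6.70, limma adjusted p = 5.19e-07), the 24th largest of all genes tested. As for HERC5, this value depends on the pseudocount, and it was 5.29 with 1 and 6.56 with 0.01. The FPKM imply a gene length of 4095 bases, against 2129 exon bases in GENCODE release 29, so its level relative to other genes depends on the gene model, and no other gene model was tested. USP41, a near-identical relative, was listed at 0 in all libraries. It aligns over 917 bases, 81.9% of the coding sequence of USP18, with 98.7% identity. How fragments that match both genes were counted is not given in the sources used here, and the effect on either value was not tested.

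In order of mean FPKM, the untreated cells had UBE2L6, ISG15, HERC4, ARIH1, UBA7, HERC6, USP18, HERC5 and HERC3. Only UBE2L6 and ISG15, the neighbours at the top, overlapped in their values over the 3 libraries. After IFNβ the order was ISG15, UBE2L6, USP18, HERC6, UBA7, HERC5, HERC4, ARIH1 and HERC3, with no overlap between neighbours. ISG15 was then 10.8 times the level of the next gene, and the 6 genes that rose stood above the 3 others.

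The genes rose by unequal amounts. The ratio of HERC5 to HERC6 within a library was 0.155, 0.153 and 0.180 untreated and 0.710, 0.803 and 0.745 after IFNβ, a log2 change of 2.21 or 4.63-fold. The ratio of ISG15 to USP18 was 11.5, 19.5 and 16.3 untreated and 21.5, 22.4 and 22.8 after IFNβ, a log2 change of 0.53 or 1.44-fold. In both pairs every IFNβ-treated library was above every untreated one, but the second change was small and moved between 0.32 and 0.70 when 1 library was left out.

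The E1 ratio, UBA7 to UBA1, lay between 0.0367 and 0.0416 untreated and between 0.439 and 0.448 after IFNβ, a log2 change of 3.53. The E2 ratio, UBE2L6 to UBE2L3, lay between 0.276 and 0.303 untreated and between 3.43 and 3.64 after IFNβ, a log2 change of 3.60, so it crossed 1. HERC5 to HERC3 changed by 4.99 on the log2 scale, on the few fragments of HERC3. All 5 ratios were higher in 3 of 3 IFNβ-treated libraries, and each had an exact two-sided permutation p of 0.10 (0.10 after Benjamini-Hochberg adjustment over the 5 ratios), the smallest this design allows.

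The rise was next compared with the protein families to which these genes belong, by lists of the other ubiquitin-like modifiers, E1 and E2 enzymes, HECT and RBR ligases and USP proteases. Of 142 such genes, 133 were tested, 1 was called higher (0.752%) and 0 were called lower, against 3.49% and 0.739% of all genes tested. Of the 133 genes, 73 had an adjusted p under 0.05, against 32.7% of all genes tested (15.2% higher and 17.5% lower), but their log2 fold changes stayed between -0.57 and 1.18, with a median of -0.04. None of the 9 other E1 enzymes, 32 other E2 enzymes, 24 other HECT ligases, 44 tested USP proteases or 12 tested ubiquitin-like modifiers was called in limma. At an adjusted p under 0.05 with no fold threshold, 1 and 3 of the E1 enzymes were higher and lower, 5 and 9 of the E2 enzymes, 6 and 10 of the HECT ligases, 6 and 3 of the 12 tested RBR ligases, 11 and 12 of the USP proteases, and 3 and 4 of the modifiers. At an unadjusted p under 0.05, 36 of the 133 genes were higher and 47 lower. The share of all genes at that threshold was not worked out, so these 2 counts have no background to be read against. Limma-voom on the recovered fragments also called 1 of the 133, against 1100 of the 20716 genes tested (892 higher and 208 lower).

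The gene called was RNF19B, an RBR ligase, which rose from 14.4 ± 0.955 to 32.7 ± 0.498 FPKM (log2 fold change 1.18, SE 0.05, limma adjusted p = 1.21e-05). Among the HECT ligases, the large HERC genes HERC1 (4.96 and 4.82 FPKM, limma adjusted p = 0.473) and HERC2 (8.29 and 7.44 FPKM, log2 fold change -0.15, limma adjusted p = 0.013) were not called.

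**Figure D2:**
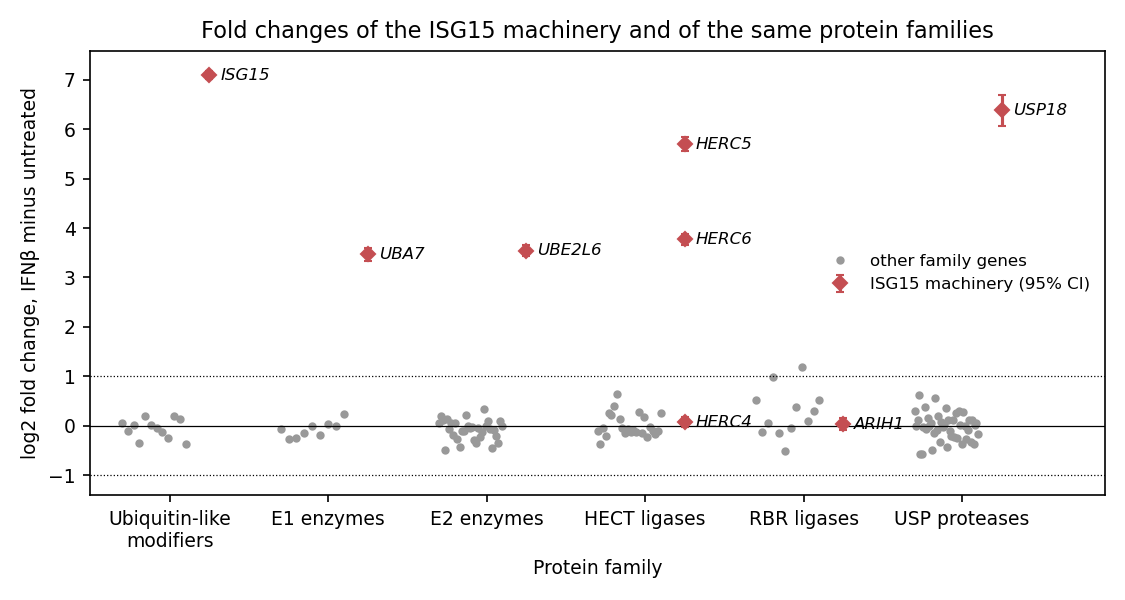
Log2 fold change, IFNβ minus untreated (y axis), for the 8 tested genes of the ISG15 machinery (red diamonds with 95% intervals) and for the other tested genes of each protein family (grey dots, x axis), with dotted lines at the fold threshold. The 133 grey dots lie between -0.57 and 1.18, HERC4 and ARIH1 lie among them, and the other 6 diamonds lie at 3.47 or above.

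Of 21 proteins known as targets or partners of ISG15, all 21 were tested, 9 were called higher and 0 lower, with a median log2 fold change of 0.38. Over all genes tested, 3.49% were called higher and 0.739% lower, and the median was 0.00. The list was drawn up with results of these data known and holds several genes that are themselves interferon-stimulated. MX1, an antiviral GTPase, rose from 0.243 to 70.6 FPKM (log2 fold change 7.70, limma adjusted p = 1.20e-07), and the double-stranded RNA sensor IFIH1 from 1.48 to 58.0 FPKM (5.20, limma adjusted p = 1.37e-07). The RNA sensor RIGI rose from 0.0752 to 1.36 FPKM (3.06), RNF213 from 6.72 to 48.2 FPKM (2.82) and the kinase EIF2AK2 from 10.2 to 47.4 FPKM (2.20). The adaptor STING1 (1.27), the ligase TRIM25 (1.23) and the ESCRT subunit CHMP5 (1.08) were called with smaller log2 fold changes. RIGI was the only gene called over all lists whose untreated mean lay under the 0.1 FPKM filter, so it entered the test through the IFNβ group. Of the other 12, IRF3 went from 8.15 to 12.3 FPKM and was under the fold threshold (log2 fold change 0.59), and PCNA was the lowest at a log2 fold change of -0.14.

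Of 6 genes that act with USP18 at the type I interferon receptor, 1 was called higher and 0 lower. The shares over all genes tested were 3.49% and 0.739%. The gene called was STAT2, which brings USP18 to the receptor, and it rose from 3.88 to 40.6 FPKM (log2 fold change 3.35, SE 0.03, limma adjusted p = 8.50e-09). The receptor chains were not called, with IFNAR1 at 5.57 and 4.81 FPKM (log2 fold change -0.20, limma adjusted p = 0.016) and IFNAR2, the chain that USP18 binds, at 0.193 and 0.265 FPKM (0.32, limma adjusted p = 0.245). The kinases JAK1 (0.38, limma adjusted p = 1.63e-04) and TYK2 (0.16, limma adjusted p = 0.0039) also stayed under the fold threshold. So did the USP18 ligase subunit SKP2 (-0.26, limma adjusted p = 0.0047). At an adjusted p under 0.05 with no fold threshold, 3 of the 6 genes were higher and 2 lower, against 15.2% and 17.5% of all genes tested. The FPKM imply gene lengths of 15676 bases for IFNAR1 and 13865 for IFNAR2, against 6301 and 4614 exon bases in GENCODE release 29. As for USP18, the levels of these chains relative to other genes therefore depend on the gene model.

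The 3 small HERC genes of chromosome 4 lie in the order HERC6, HERC5 and HERC3 on the plus strand, with 14.0 kb between HERC6 and HERC5. Between HERC5 and HERC3, PYURF and PIGY were listed at 0 in all libraries. PIGY lies inside PYURF on the same strand, and whether fragments shared by them were left out of the counts was not tested. On the other side of HERC6, 94.0 kb away, PPM1K, a mitochondrial phosphatase, rose from 0.850 to 5.48 FPKM (log2 fold change 2.55, limma adjusted p = 5.85e-07). NAP1L5, which lies inside HERC3 on the other strand, was at 6.34 and 6.71 FPKM (0.08, limma adjusted p = 0.292), and FAM13A, 17.4 kb beyond HERC3, was at 1.94 and 1.93 FPKM (-0.01, limma adjusted p = 0.930).

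The nearest neighbours of the other genes were mixed. HES4, a transcriptional repressor on the minus strand, starts 0.966 kb from the GENCODE span of ISG15 and 13.3 kb from the RefSeq start of ISG15. It points away from ISG15 and rose from 7.40 to 40.5 FPKM (log2 fold change 2.44, limma adjusted p = 2.01e-05). AGRN, 5.58 kb beyond the end of ISG15, went from 61.7 to 117 FPKM and was under the fold threshold (0.93, limma adjusted p = 4.81e-07). SMTNL1, on the other strand, ends 1.38 kb from the end of UBE2L6. Its FPKM went from 0.0689 to 2.54 on 3, 2 and 5 fragments against 116, 116 and 130. With an untreated mean under the filter, SMTNL1 entered the test through the IFNβ group (limma adjusted p = 1.66e-05). Whether fragments of UBE2L6 transcripts were counted in SMTNL1 was not tested. SERPING1, the neighbour of UBE2L6 on the other side, had a mean under the filter.

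INKA1 (log2 fold change 0.47, limma adjusted p = 0.199) and TRAIP (0.36, limma adjusted p = 0.028) beside UBA7 were not called. SIRT1 (0.14, limma adjusted p = 0.073) and MYPN (0.37, limma adjusted p = 0.103) beside HERC4 were not called either. The neighbours of ARIH1 (TMEM202 and GOLGA6B) and of USP18 (TUBA8 and GGTLC3) were too low to be tested.

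The genes whose profile over the 6 libraries was most like that of ISG15 or USP18 were found by the root mean square distance of log2(FPKM + 0.1), centred on the untreated mean, over 11988 genes with a mean of at least 1 FPKM. Nearest to ISG15 were SLC15A3, a lysosomal peptide transporter, at a distance of 0.0790, then IFI27 (0.154) and IFIT2 (0.210), 2 interferon-induced genes. Their levels were far from that of ISG15, with 14.3 FPKM for SLC15A3, 114 for IFI27 and 116 for IFIT2 after IFNβ. Nearest to USP18 were LGALS9, which encodes galectin-9, at 0.0856, and OAS1, an oligoadenylate synthetase, at 0.146. The next, ENSG00000225886 (0.161), is an antisense gene that overlaps IFI6 on the other strand, and it was listed at 0 in the untreated libraries. All 6 of these genes had an untreated mean under 1 FPKM and passed the filter through the IFNβ group. The distance also depends on the pseudocount for genes near 0 in the untreated cells. SLC15A3, with 1, 3 and 4 untreated fragments, had a ratio of group means of 1118 in FPKM, against 138 for ISG15, so the 2 profiles are alike only on the scale with the pseudocount.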

How the data were processed

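RNA of 3 untreated and 3 IFNβ-treated HT1080 samples was sequenced as paired ends. The authors deposited FPKM for each Ensembl gene and library, with no pooling of replicates. The submitters' processing notes name fastp, HISAT2, StringTie and build GRCh38 without versions or roles. The study enriched mRNA and tested counts with DESeq2, which FPKM do not allow. The annotation, gene lengths, strandedness and treatment of fragments that match several genes are not given in the sources used here. Of the identifiers, 4436 are not in GENCODE release 29, so locations from that release may differ from the authors' models. All columns of values were used.

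The groups were compared in limma 3.58.1 under R 4.3.3, with no covariate. The functions lmFit and eBayes (trend on) were run on log2(FPKM + 0.1) of the genes whose mean reached 0.1 FPKM, and p-values were adjusted by Benjamini-Hochberg over all genes tested. Fold changes on this scale understate those of low genes. Whole fragments were recovered from the proportions of each gene's FPKM for 100% of the 35303 genes above 0 and made up 99.25% to 99.29% of each library's total. A factor common to all values of a gene cannot be seen from proportions. It was restored only where it met the GENCODE exon length exactly, so some recovered counts may be too low. Ratios were tested by exact two-sided permutation over libraries. Coding sequences were aligned with blastn (2.17.0), and promoters came from RefSeq. Tables were handled in Python with scipy 1.17.1, numpy 2.4.6 and pandas 2.3.3.

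The genes and lists were chosen with earlier results of these data known. Named were the 9 genes, called list members, UBE2L3, UBA1 and USP41 as relatives, the nearest protein-coding neighbours and those between HERC6 and HERC3, and the 3 genes most like ISG15 and USP18. Other genes (HERC1, HERC2, NEDD8, UBB, UBD, RBCK1, RNF31, IRF3, PCNA, the receptor partners, FTL, GAPDH and TMEM202-AS1) were chosen after their values were seen. Some list members count in the totals and are not reported by name here. Alternatives were other pseudocounts (1 and 0.01), filters and scalings, eBayes without trend, a replicate block, limma-voom on the recovered fragments, no fold threshold, and each library left out.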

Additional observations from a re-analysis of the deposited data

How the results depend on the processing

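Of the 9 genes, 6 were called under each of the 17 settings run, leave-one-out fits included. The log2 fold changes ranged from 6.98 to 7.17 for ISG15, 3.09 to 3.53 for UBA7, 3.45 to 3.58 for UBE2L6, 4.20 to 6.01 for HERC5, 3.34 to 3.83 for HERC6 and 5.29 to 6.60 for USP18. HERC4 (0.03 to 0.10) was not called in any, nor was ARIH1, which turned to -0.0127 under quantile normalization, a scaling that moved the median of all genes by -0.06, and lay between -0.00498 (without untreated replicate 3) and 0.0527 when 1 library was left out, and the cause was not tested. The untested difference of HERC3 was 0.06 with a pseudocount of 1 and 0.88 with 0.01, and the log2 change of the HERC5 to HERC6 ratio was 1.92 with 0.1 added to both genes. The genes called among all tested numbered 875, against 304 with a pseudocount of 1, 425 with a filter at a mean of 1 FPKM, 6778 with no fold threshold, and 809 to 867 without 1 library. Of 157 list genes tested, 11 were called, against 92 (48 higher and 44 lower) with no fold threshold. The shares over all genes tested were 4.22% with the fold threshold and 32.7% without it. The correlations of deviations between libraries of the same number were 0.05, -0.02 and 0.12 over 11996 genes. Between libraries of different number they ran from -0.15 to 0.10. With 3 libraries in a group, these values neither show nor exclude that the numbers pair the libraries. With the replicate block 6 of the 9 genes, 11 list genes and 829 genes in all were called. The values of HERC3 and, in untreated cells, of HERC5 and USP18 rest on few fragments.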

Other observations

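UBB, a gene that encodes ubiquitin itself, was under the fold threshold and went from 117 ± 1.94 to 98.7 ± 2.00 FPKM (log2 fold change -0.24, limma adjusted p = 3.98e-04). Among the RBR ligases, RBCK1, a subunit of the complex that builds linear ubiquitin chains, went from 8.03 ± 0.282 to 15.9 ± 0.651 FPKM, just under the fold threshold (0.98, limma adjusted p = 1.45e-05). RNF31, the catalytic subunit of the same complex, was at 0.203 and 0.337 FPKM (0.53, limma adjusted p = 0.069). These genes were chosen after their values were seen.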
